A study of Homo sapiens with 4 samples.

Results

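The ERBB receptors and their ligands were followed through 9 probes on an expression array, in HepG2 cells with and without berberine. HepG2 is a human hepatocellular carcinoma line, and berberine is a plant alkaloid. The members were chosen by gene name, as the probes whose annotated symbol was EGFR, ERBB2, ERBB3, ERBB4, AREG, EREG, HBEGF, TGFA, BTC or ERRFI1. Of these 10 genes, 9 had a probe, each 1 of the 26423 probes in the deposited table, and AREG was matched by 0 probes under its current or its older names. Total RNA of 2 control samples and 2 berberine samples was labelled with Cy5 and hybridised as single-colour arrays. Per the labels' treatment field, the berberine samples received 26.95 µM for 24 hours and the control samples none, all in serum-supplemented medium. The description field of all 4 samples instead names an MDI differentiation protocol of 48 hours, with 13.47 µM berberine for the treated samples, a conflict that stands unresolved here. Replicates were numbered as in the titles. The labels do not say whether they were separate cultures, so p-values cover only the spread among these samples, possibly a technical one.

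The 4 ERBB receptors are tyrosine kinases of the cell surface that pair with themselves or each other when a ligand of the epidermal growth factor family binds. The pairs phosphorylate their own tails, and adaptor proteins docked there switch on the RAS-MAPK and PI3K-AKT cascades. ERBB2 has no known ligand of its own, ERBB3 has a very weak kinase and is known mainly for docking PI3K, and the ligands are made as membrane-bound precursors that proteases release. In liver, EGFR and ERBB3 are known as the main receptors of this family on hepatocytes, where they take part in growth and regeneration.

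The array carries mouse probes while the labels give human cells, so a gene name below stands for the mouse probe of that name, and how well it captures the human transcript was not tested. The sequences of these probes were not used here. Median intensities were 62 to 90 per sample, and the 5th percentile was 4 in control 2 against 25 to 30 in the other samples, so low readings of control 2 sit on a lower baseline. Levels below are log2(intensity + 1) after quantile normalization. As a reference for background, the 543 probes named for mouse olfactory receptors had a median level of 6.02 and a 95th percentile of 9.23. Over all probes, Pearson's r was 0.961 for the 2 controls, 0.970 for the 2 berberine samples, and 0.954 to 0.964 for pairs that crossed the groups; these are correlations across probes, which are not independent replicates. Of 24 hepatocyte marker probes 2 had a mean level above 9.23, RBP4 (the plasma retinol carrier) at 13.34 and FABP1 (liver fatty acid binding protein) at 9.33. Below it, ALB (albumin) stood at 8.35, AFP (alpha-fetoprotein, which HepG2 is known to secrete) at 4.75 and TTR (transthyretin) at 5.25. Of 19 adipocyte marker probes 3 were above it, CEBPA at 10.98, CD36 at 10.33 and PNPLA2 at 9.97, while ADIPOQ stood at 6.65, LEP at 5.32 and PPARG at 4.75. Of 11 fibroblast, 11 macrophage and 12 endothelial marker probes, 0 were above it.

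The members were proposed with earlier results of this same contrast known. Their values are therefore given as a description, with no p-value, and they support nothing by themselves. An SE given with a difference is the moderated one of limma's fit over all probes. It draws on the spread of other probes and not on the member's own samples alone.

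ERBB3 was the member with the largest difference. Its probe read an intensity of 1145 in control 1 and 974 in control 2 as deposited, against 422 in berberine 1 and 523 in berberine 2. Both berberine readings lay below both control readings, and the mean intensity with berberine was 0.446 of the control mean. After normalization the level was 9.93 ± 0.03 in control cells and 8.98 ± 0.05 with berberine (SD, n = 2 in each group), a difference of -0.95 on the log2 scale (SE 0.080), or 1.94-fold lower. The replicates differed from each other by 0.04 between the controls and by -0.06 between the berberine samples. Within each array, without any scaling, the ERBB3 probe stood at percentile 95.6 and 95.5 of all probes in the controls and at 90.4 and 90.9 with berberine. The control levels lay above the olfactory receptor 95th percentile and the berberine levels below it, so the lower reading is in the range of the background reference. Of all 26423 probes, 368 had a more negative difference, as had 56 of the 2010 probes with a mean level above 9.23.

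EGFR, the receptor that gives the family its name, read 30 and 12 in the controls and 49 and 28 with berberine. The groups overlapped, since berberine 2 read less than control 1. Its level was 4.70 ± 0.27 in control cells and 5.16 ± 0.66 with berberine (SD, n = 2 in each group), so the difference of 0.46 was smaller than the spread of the berberine samples, which differed by 0.93. All 4 readings lay below the median of the olfactory receptor probes. No change of EGFR can be read from this probe in either direction.

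ERBB2, the shared partner of the other receptors, read 90 and 109 in the controls and 106 and 135 with berberine. The groups overlapped, and the level went from 6.64 ± 0.47 to 6.91 ± 0.13 (SD, n = 2 in each group), a difference of 0.26 with an SE of 0.246. ERBB4, a neuregulin receptor known mainly from heart and brain, read 41 and 11 in the controls and 29 and 36 with berberine. Its levels overlapped too, at 4.87 ± 0.25 and 4.86 ± 0.26 (SD, n = 2 in each group), with a difference of -0.01. Both probes lay below the olfactory receptor 95th percentile in all 4 samples.

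**Figure D1:**
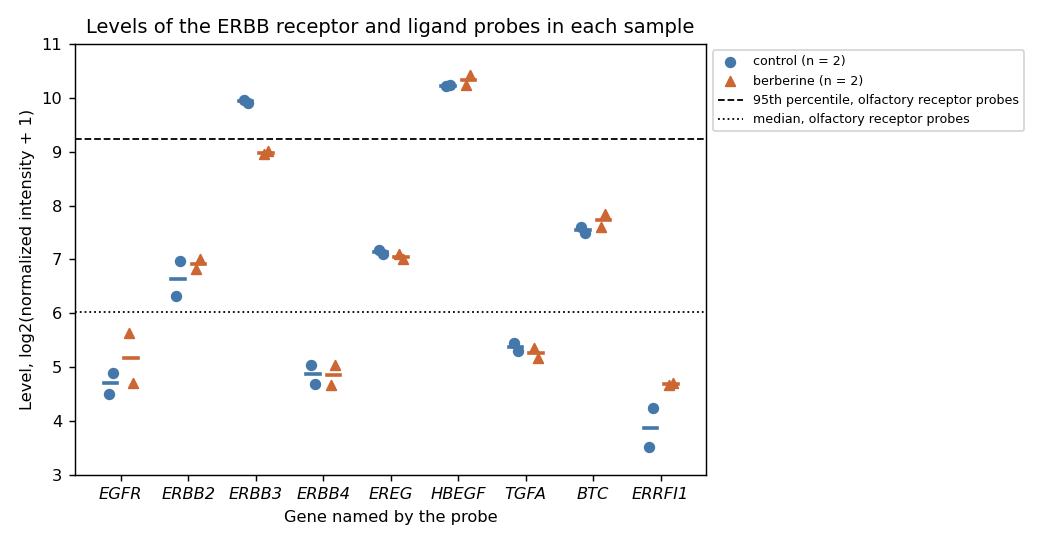
Level of each member probe, as log2(normalized intensity + 1), in the 2 control samples (circles) and the 2 berberine samples (triangles), with short bars for the group means and horizontal lines for the median (6.02) and 95th percentile (9.23) of the olfactory receptor probes. The ERBB3 samples fall into 2 separate pairs, at 9.91 and 9.95 in control cells and 8.95 and 9.01 with berberine, while most other members show groups that overlap or nearly touch.

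Among the member ligands, HBEGF was the 1 whose probe stood above the background reference in all samples. HBEGF encodes heparin-binding EGF-like growth factor, which binds EGFR and ERBB4. The probe read 1395 and 1216 in the controls and 1011 and 1355 with berberine, so the groups overlapped as deposited. After normalization the levels were 10.22 and 10.23 in the controls and 10.24 and 10.43 with berberine, which no longer overlapped. The difference was 0.11 (SE 0.091), smaller than the gap of 0.18 between the berberine samples. It was -0.15 on the deposited scale and -0.27 after median centring, so no direction can be given. Whether the differences of the ERBB3 and HBEGF probes differ from each other was not tested.

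The other member ligand probes lay below the background reference in all 4 samples. BTC, betacellulin, which binds EGFR and ERBB4, read 220 and 167 in the controls and 172 and 239 with berberine. Its levels were 7.54 ± 0.07 and 7.73 ± 0.18 (SD, n = 2 in each group), and its difference of 0.18 turned to -0.03 with median centring. EREG, epiregulin, which binds the same receptors, read 163 and 120 in the controls and 125 and 135 with berberine. Its levels were 7.13 ± 0.06 and 7.05 ± 0.06 (SD, n = 2 in each group), which overlapped, with a difference of -0.08. TGFA, transforming growth factor alpha, a ligand of EGFR, read 51 and 22 in the controls and 42 and 38 with berberine. Its levels overlapped at 5.37 ± 0.10 and 5.26 ± 0.13 (SD, n = 2 in each group), and its difference was -0.10 here, 0.24 on the deposited scale and 0.13 with median centring. For these 3 ligands the difference was no larger than the gap between the replicates of at least 1 group, and the sign of 2 of the 3 turned with the scaling.

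ERRFI1 encodes MIG6, an inhibitor that binds the kinase domain of active EGFR and is itself induced by EGFR signalling. Its probe read 20 and 3 in the controls and 29 and 28 with berberine, so both berberine readings exceeded both controls. The level went from 3.88 ± 0.52 to 4.69 ± 0.02 (SD, n = 2 in each group), a difference of 0.81 with an SE of 0.379. The controls differed from each other by -0.74, nearly as much as the groups did. All 4 levels lay below the olfactory receptor median, and the mean stood at percentile 2.93 of all probes. The difference fell to 0.22 with a pseudocount of 50 and rose to 1.69 with values as deposited, so its size depends on how readings near 0 are treated.

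Counted together, the groups did not overlap for 4 of the 9 member probes after normalization, 3 higher (HBEGF, BTC and ERRFI1) and 1 lower (ERBB3). The same held for 43.5% of all probes, 21% higher and 22.5% lower, so the members' share is near that of the whole array. As deposited, the readings of HBEGF and BTC overlapped. The nearest BTC levels after normalization were 7.5962 in control 1 and 7.5999 in berberine 1. The median difference was 0.11 over the members and -0.01 over all probes. In limma's fit with an intensity trend over all probes (Benjamini-Hochberg adjusted p under 0.05), 1.07% of probes were called, 0.704% higher and 0.367% lower. Of the members, 0 were called higher and 1 lower, which was ERBB3. Because the members were chosen with this contrast known, nothing is read from that count.

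**Figure D2:**
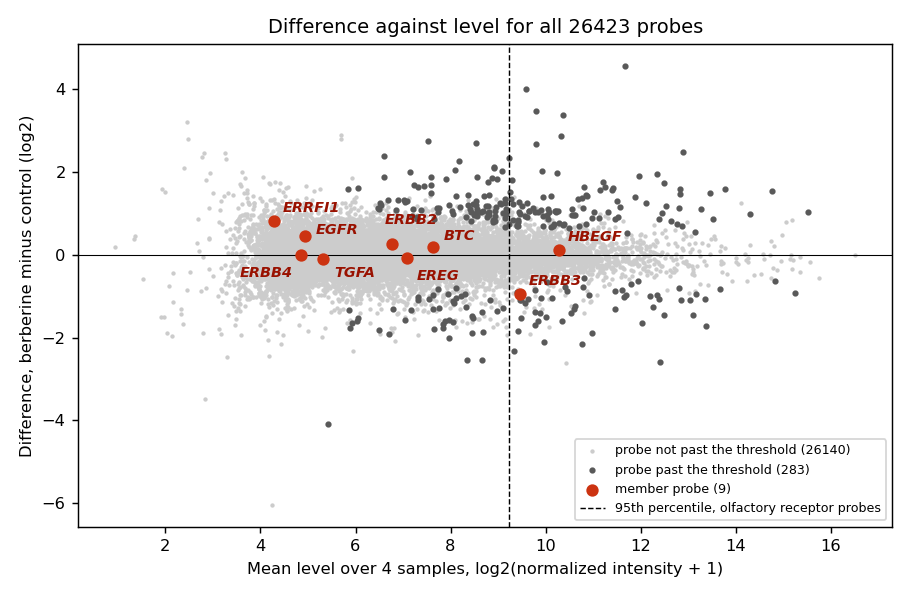
Difference between berberine and control (log2, vertical axis) against mean level over the 4 samples (log2, horizontal axis) for all 26423 probes, with the 283 probes past the threshold in dark grey and the 9 members in red. ERBB3 lies at a difference of -0.95 near the dashed line of the background reference (9.23), HBEGF to its right near 0, and the other 7 members to the left of the line.

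The scaling of the arrays moved the members as well as the calls. The median difference over all probes was -0.01 after quantile normalization and 0.11 with values as deposited. The ERBB3 difference was -1.17 as deposited and -1.28 with median centring; relative to the median probe it was -0.94, -1.27 and -1.27 under quantile normalization, as deposited and with median centring. Over these scalings, a pseudocount of 50 and each sample left out, ERBB3 ranged from -1.28 to -0.89 and was negative in all 8 settings. EREG was also negative in all 8, from -0.22 to -0.04, and EGFR (0.0026 to 0.95) and ERRFI1 (0.22 to 1.69) were positive in all 8. The signs of ERBB2, ERBB4, HBEGF, TGFA and BTC changed with the setting. All settings reuse the same arrays, so a steady sign is no independent support, and for EGFR the groups overlapped. With both berberine readings of ERBB3 below both controls, leaving out a sample could hardly turn its sign.

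**Figure D3:**
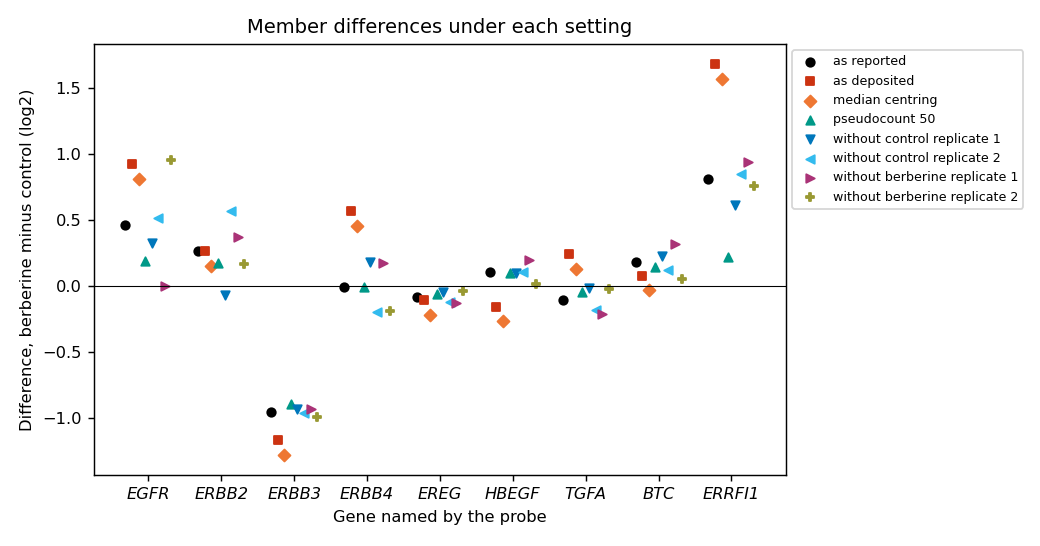
Difference between berberine and control (log2, vertical axis) of each member probe (horizontal axis) under the reported setting and 7 others, each marked by its own symbol. All ERBB3 points lie between -1.28 and -0.89, whereas the points of ERBB2, ERBB4, HBEGF, TGFA and BTC fall on both sides of 0.

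The genes whose 4-sample pattern was most like that of each bright member were looked up among 1664 named probes with mean levels above 9.23, by the root mean square distance of the 4 centred log2 levels. Nearest to ERBB3 were EWSR1, an RNA-binding protein, at a distance of 0.03, with RDBP and FIBP at 0.04. EWSR1 went from 12.71 to 11.70, RDBP from 12.84 to 11.86 and FIBP from 12.18 to 11.20. Nearest to HBEGF were CNFN at a distance of 0.01, CENPM at 0.03 and BC031181 at 0.03, with differences of 0.10, 0.16 and 0.10. With 4 samples, such likeness says little more than that the group differences are of like size.

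The other genes of the pathway were taken from 8 lists of ligands, sheddases, inhibitors, adaptors and cascade members, response genes and other receptor kinases, with 160 measured genes and 189 probes. Of these probes 8 were called higher and 0 lower, beside 0.704% and 0.367% of all probes, and 27 had an unadjusted limma p under 0.05, 24 higher and 3 lower. Over all probes 13.4% had such a p, 6.85% higher and 6.52% lower, and the unadjusted counts of the lists below are to be read beside these shares. Of the 8 called probes, 7 belonged to the list of genes known to respond to EGF.

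Of 8 probes for other ligands, 0 were called by limma in either direction, and 1 had an unadjusted p under 0.05. It was NRG2, a neuregulin that binds ERBB3 and ERBB4, which read 193 and 138 in the controls and 114 and 142 with berberine, a difference of -0.34 (limma adjusted p = 0.370). NRG1, the best known ligand of ERBB3, differed by -0.04 at a level of 5.72, in the background range. EPGN, epigen, was the 1 probe of this list above the background reference, and it read 1214 and 944 in the controls and 773 and 928 with berberine, a difference of -0.10 (limma adjusted p = 0.686). EGF itself differed by -0.0011 at a level of 7.33.

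Of 12 probes for the proteases and cofactors that release ligands, 0 were called by limma and 0 had an unadjusted p under 0.05. The smallest p belonged to ADAM12, a membrane protease, at a difference of -0.41 (limma adjusted p = 0.387). ADAM17, the main sheddase of TGFA and HBEGF, differed by -0.01, and 0 of these probes stood above the background reference.

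Of 31 probes for receptor inhibitors, ubiquitin ligases, phosphatases and sorting factors, 0 were called by limma, while 6 were higher at an unadjusted p under 0.05 and 0 lower. The smallest p belonged to RAB7, a small GTPase of late endosomes, which read 905 and 601 in the controls and 1231 and 1245 with berberine. Its level was 9.43 ± 0.26 in control cells and 10.42 ± 0.16 with berberine (SD, n = 2 in each group), a difference of 0.99 (limma adjusted p = 0.0830). Over the 31 probes the median difference was 0.20, beside -0.01 over all probes. RNF41, a ubiquitin ligase known to lower ERBB3 protein, differed by -0.16 and 0.33 on its 2 probes, neither above the background reference. LRIG1, a membrane protein that promotes receptor degradation, differed by -0.24 at a level of 5.95.

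Among 31 probes for adaptors and the RAS-MAPK cascade, NCK2 was the 1 called, higher. NCK2 is an SH2 and SH3 adaptor that binds activated receptor kinases. It read 2528 and 2082 in the controls and 3426 and 3936 with berberine, and its level rose from 11.07 ± 0.04 to 11.97 ± 0.01 (SD, n = 2 in each group), 1.87-fold (limma adjusted p = 0.0132). The call was lost with values as deposited, where the difference was 0.68, and with median centring, where it was 0.57. Another 6 probes of the list were higher at an unadjusted p under 0.05 and 0 lower. Of 27 probes for PI3K, AKT and mTOR, the branch to which ERBB3 couples, 0 were called by limma and 0 had an unadjusted p under 0.05. PIK3R1, a regulatory subunit of PI3K, had the smallest p there, at -0.24 (limma adjusted p = 0.445). Of 11 probes for SRC, JAK and STAT kinases and factors, 0 were called by limma and 2 were higher at an unadjusted p under 0.05, JAK1 at 0.41 (limma adjusted p = 0.301) being the first, with its second probe at 0.22.

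**Figure D4:**
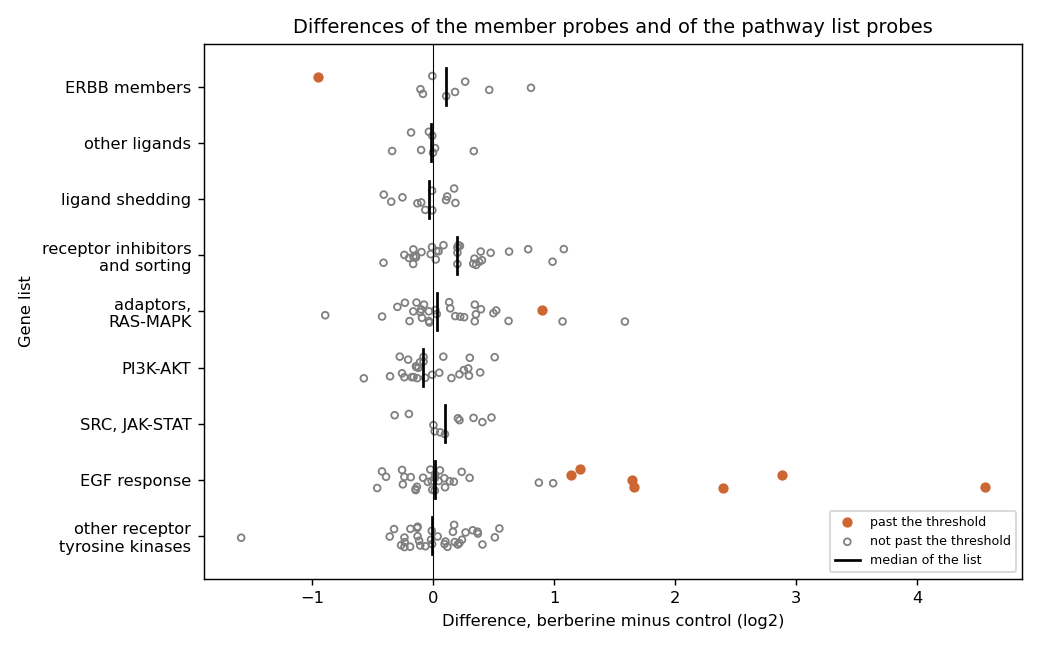
Difference between berberine and control (log2, horizontal axis) of the member probes and of the probes in each of the 8 pathway lists, with filled points for probes past the threshold and black bars for each list's median. The filled points are ERBB3 at -0.95, NCK2 at 0.90 and 7 EGF response probes between 1.14 and 4.56, and all list medians lie between -0.08 and 0.20. The members were chosen with this contrast known, so nothing is read from the filled ERBB3 point.

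Of 35 probes for genes known to be induced by EGF, 7 were called higher by limma and 0 lower, beside 0.704% and 0.367% of all probes. At an unadjusted limma p under 0.05, 8 were higher and 1 lower, which was KLF10. Regardless of p, 20 of the 35 differences were above 0 and 15 below. EGR1, an immediate early transcription factor, read 823 and 630 in the controls and 14131 and 15864 with berberine, a rise of 4.56 on the log2 scale (limma adjusted p = 0.00123). VEGFA, the angiogenic factor, read 1538 and 1443 in the controls and 3589 and 4422 with berberine, a rise of 1.64 (limma adjusted p = 0.00523). FOS, the partner of JUN in AP-1, read 51 and 23 in the controls and 194 and 230 with berberine, a rise of 2.40 (limma adjusted p = 0.0064), with both group means below the background reference. The others called higher were the cytokine LIF by 2.88, IER3 by 1.66, JUNB by 1.21 with its second probe at 0.10, and the ERK phosphatase DUSP5 by 1.14. The call of DUSP5 was lost as deposited, with median centring and with the replicate number as a block, at differences of 1.23, 1.11 and 1.14. The mean levels of FOS, IER3, JUNB and DUSP5 lay below the background reference. These genes answer to many signals besides EGF, and several were known from earlier results of these data to be higher, so the count is not independent evidence.

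Other members of the same list did not pass the test. JUN differed by 0.02, FOSL1 by -0.08, CCND1 by 0.17 and ATF3 by 0.02. The MAPK feedback genes DUSP6 at 0.30, DUSP4 at 0.14 and SPRED2 at -0.19 and 0.09 on its 2 probes also did not pass. KLF6, at 0.99, and EGR2, at 0.87, came close to DUSP5 in size without passing, and on the other side PLAUR stood at -0.46 and KLF10 at -0.39. The median difference over the 35 probes was 0.02.

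Receptor tyrosine kinases of other families were compared with ERBB3. Of 35 probes 0 were called by limma, and 2 had an unadjusted p under 0.05, 1 higher and 1 lower. The differences ran from -1.59 to 0.55, with a median of -0.01. The lowest was NTRK3, a neurotrophin receptor, which read 88 and 119 in the controls and 39 and 36 with berberine (limma adjusted p = 0.118), with a second probe at -0.32. INSR, the insulin receptor, was the 1 probe of the list above the background reference, and it read 1270 and 1089 in the controls and 966 and 1133 with berberine, a difference of 0.09 (limma adjusted p = 0.635). Whether ERBB3 differed from these receptors in its response was not tested.

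Beside these values stand the marker lists. Of the 24 hepatocyte marker probes 0 were called higher and 3 lower: FABP1 fell by 2.32, FGG, the fibrinogen gamma chain, fell by 1.77, and RBP4 fell by 1.08 (limma adjusted p = 0.00523, 0.0175 and 0.0261), while the 2 dimmer RBP4 probes were at -0.15 and -0.22. The FGG probe lay below the background reference in all 4 samples, at a mean level of 5.88, and the mean FABP1 level with berberine, 8.17, lay below it too. Of 19 adipocyte marker probes CEBPA, which hepatocytes also express, was the 1 called, and it fell by 1.89 (limma adjusted p = 0.00523). The summed normalized intensity of the hepatocyte list, most of it from the bright RBP4 probe, was 19343 to 20580 in control cells and 9308 to 11245 with berberine, and that of the adipocyte list 8031 to 9195 and 4591 to 5247, so both sums were lower in the same samples as ERBB3. Without that RBP4 probe the hepatocyte sums were 4717 to 4960 and 2768 to 3417, and without CEBPA the adipocyte sums were 3957 to 5504 and 3512 to 4232, which overlap. Of the hepatocyte probes 7 had a difference above 0 and 17 below, with a median of -0.19. Of the adipocyte probes 4 were above 0 and 15 below, with a median of -0.20, and FABP4 was the highest at 1.00 (limma adjusted p = 0.0693). The berberine samples could also differ widely, as APOA2 read 144 in berberine 1 and 531 in berberine 2. For fibroblast markers the sums were 750 to 783 and 832 to 850, for macrophage markers 1587 to 1662 and 1748 to 1765, and for endothelial markers 2474 to 2660 and 2408 to 2480. Without POSTN the fibroblast sums were 650 to 657 in control cells and 616 to 628 with berberine, so their direction turned. Without CD14 the macrophage sums were 1220 to 1255 and 1233 to 1260, which overlap. In the 5 marker lists 0 probes read 0 or less in any sample. Of the fibroblast, macrophage and endothelial marker probes, 0 were called by limma, with 1, 1 and 0 at an unadjusted p under 0.05. The smallest p-values there belonged to POSTN at 0.96, CD14 at 0.40 and CDH5 at -0.25 (limma adjusted p = 0.0803, 0.187 and 0.422). The part of cell composition in the ERBB3 difference was not tested, and in such samples fewer cells of a type and less RNA per cell cannot be told apart.

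Without any single control or berberine sample, which leaves a group of 1 sample assumed to vary like the other group and 1 residual degree of freedom, limma with an intensity trend called 0 probes of the array, with 1964 to 4137 at an unadjusted p under 0.05. The differences of the called pathway probes stayed positive. They ran from 4.49 to 4.66 for EGR1, 1.59 to 1.72 for VEGFA and 0.87 to 0.92 for NCK2. The others moved more, from 2.62 to 3.13 for LIF, 1.44 to 1.84 for IER3 and 2.21 to 2.51 for FOS. JUNB ran from 1.10 to 1.29 and DUSP5 from 1.05 to 1.24. Without the trend limma called 0 probes too, with 3101 at an unadjusted p under 0.05. With 2 samples a group, the smallest 2-sided p an exact permutation test can give is 0.333.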

How the data were processed

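The deposited table holds intensity values of 26423 probes on a linear scale, as whole numbers, per the values and the labels' protocols. Per the labels, RNA was column-purified and Cy5-labelled; which scanner, background correction and normalization were used is not given in the sources used here. Samples were grouped by title. Log2 medians as deposited spanned 0.531, above a limit of 0.2, so intensities were quantile normalized, floored at 0 (281 deposited values were below 0) and taken as log2(value + 1). The log2 values were computed here from the deposited intensities. Each probe was tested by limma (version 3.58.1, under R 4.3.3; lmFit, then eBayes with an intensity trend, 2-sided, 2 residual degrees of freedom, Benjamini-Hochberg over all probes, threshold 0.05). The trend was used because the median replicate SD went from 0.361 to 0.0827 from the dimmest to the brightest of 10 groups of probes split by level. The fit was tested on simulated data. Their spread was set by level alone, so that test could not show whether the trend holds for the real probes. The number of arrays limits the precision.

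Names came from the supplied platform annotation, which named 20377 probes; lists were matched by symbol. The members, lists and tests were chosen with earlier results of these data known. From each list, up to 3 called probes per direction were named, or else the probe with the smallest p; the other list genes, and the defining markers, were named after their values were seen. Alternatives were values as deposited, median centring, a pseudocount of 50, leaving out the dimmest 30% of probes, no trend, the robust option, a single probe per gene, a replicate block and each sample left out. Figures were drawn with matplotlib 3.10.9.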

Additional observations from a re-analysis of the deposited data

How the results depend on the processing

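The reported fit called 186 probes higher and 97 lower, with 65.7% of calls higher. With values as deposited the counts were 106 and 223 (32.2% higher), and with median centring 69 and 168 (29.1% higher), so the balance of directions turned with the scaling. The robust option gave 462 and 327, and probes above the olfactory receptor 95th percentile alone, chosen after seeing the data, gave 239 and 243. For the pathway lists, 8 probes were called higher and 0 lower, and the robust option gave 11 and 1. Restricting the fit to probes above that percentile gave 5 and 0. That restriction left out the probes of DUSP5, FOS, IER3 and JUNB, whose mean levels lay below the percentile. The other 4 called probes kept their call, and RAB7 was gained. Without the trend, 0 probes were called higher or lower over the array and the pathway lists. Fits that left out 1 of the 4 samples had a group of 1 sample and 1 residual degree of freedom. Their calls, given above, do not decide whether the reported calls are stable. The causes of the other changes were not tested.

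Taking the titles' replicate number as a block (replicate block) gave 143 probes higher and 93 lower, and 8 and 0 in the pathway lists. Of these 8, 7 were shared with the reported fit: DUSP5 was lost and RAB7 gained. The block fit also has 1 residual degree of freedom, so its calls do not decide stability either. Deviations of same-numbered samples correlated at 0.084 over probes, while control 2 and berberine 2 correlated at 0.964, against 0.961 for the 2 controls. These values cannot show whether same-numbered samples were handled together, and no pairing was assumed. Of the members' 63 values under other settings, 46 moved by less than the replicate SD and 17 by more. Dim probes limit what can be read: 7 of 9 members lay below the background reference.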
